A study of Mus musculus with 4 samples.

Results

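In all, 10 genes of the circadian clock were followed in mouse stomach, by the only probe that the array annotation gives each of them: Clock, Per1, Per2, Cry1, Nr1d1, Nr1d2, Dbp, Tef, Nfil3 and Usp2. They are 10 of the 13840 genes named by a probe with a single gene symbol. Stomach RNA was compared between male mice of B6.CAST-17, a homozygous congenic strain that by its name carries CAST-derived chromosome 17 on a C57BL/6J background, and wild-type C57BL/6J males. Each strain gave 2 pools, each mixing RNA of 3 animals in equal amounts, and each pool was read on 1 single-colour array, 4 arrays in all. All mice ate chow, lost access to food at 1300 by the clock, in their light phase, and were killed 4 h later. Ages were not given in the labels, and with pools the values of single animals are not visible. A single clock time was sampled, so the phase, the amplitude and the mean level of a rhythm cannot be told apart.

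The clock is a feedback loop of transcription that runs in most cells of the body, gut included. CLOCK and its partner BMAL1, the product of Arntl, bind E-box sequences and switch on the Per and Cry genes, whose proteins return to the nucleus and block them. The same pair drives Nr1d1 and Nr1d2, whose REV-ERB proteins repress Arntl, and Dbp and Tef, activators that compete with the repressor NFIL3 for D-box sequences. In mouse tissues such as liver, the transcripts of Dbp, Tef, Per1, Per2, Nr1d1, Nr1d2 and Usp2 crest in the day or around dusk, while those of Nfil3, Cry1, Arntl and Clock crest in the night or around dawn. The comparison addressed whether these groups, called the day arm and the night arm here, moved together and in opposite directions between the strains. Genes of an arm crest at differing hours, so at a single clock time a shift of phase need not move them in the same direction. The median of an arm is therefore a description and not a measure of phase.

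The bases before annotated starts of 5 members are shown because the loop acts through control sequences such as the E-box and the D-box. They belong to the members with the largest differences among those measured on all arrays (Usp2 and Nfil3). The others belong to a REV-ERB gene (Nr1d1), a D-box activator (Tef) and a core repressor (Cry1). Control sequences elsewhere in or around these genes are not seen, so a window without a match does not show that a gene lacks them. Each window holds the 250 bases before a start, 5′ to 3′ on the gene's strand, from RefSeq on GRCm38.p6. They lie at chr9:44084670-44084919 on the plus strand (Usp2), chr13:52981040-52981289 on the minus strand (Nfil3), chr11:98775378-98775627 on the minus strand (Nr1d1), chr15:81802423-81802672 on the plus strand (Tef) and chr10:85185055-85185304 on the minus strand (Cry1). Capitals mark matches, on either strand, to the E-box CACGTG, its variant CACGTT, the D-box TTANNTAA or the receptor core AGGTCA.
Usp2: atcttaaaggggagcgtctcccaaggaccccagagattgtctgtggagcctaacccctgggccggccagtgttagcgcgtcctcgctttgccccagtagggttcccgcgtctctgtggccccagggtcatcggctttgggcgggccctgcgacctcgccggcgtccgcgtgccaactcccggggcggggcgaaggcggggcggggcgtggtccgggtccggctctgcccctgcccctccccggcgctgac
Nfil3: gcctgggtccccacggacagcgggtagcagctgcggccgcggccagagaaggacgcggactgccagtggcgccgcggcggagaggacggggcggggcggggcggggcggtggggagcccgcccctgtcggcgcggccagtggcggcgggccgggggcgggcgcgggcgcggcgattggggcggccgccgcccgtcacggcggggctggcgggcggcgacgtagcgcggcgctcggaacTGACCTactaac
Nr1d1: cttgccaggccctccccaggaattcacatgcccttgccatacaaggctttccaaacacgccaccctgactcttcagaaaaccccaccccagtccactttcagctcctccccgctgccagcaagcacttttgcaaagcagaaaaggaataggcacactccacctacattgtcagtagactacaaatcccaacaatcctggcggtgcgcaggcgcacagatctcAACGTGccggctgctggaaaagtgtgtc
Tef: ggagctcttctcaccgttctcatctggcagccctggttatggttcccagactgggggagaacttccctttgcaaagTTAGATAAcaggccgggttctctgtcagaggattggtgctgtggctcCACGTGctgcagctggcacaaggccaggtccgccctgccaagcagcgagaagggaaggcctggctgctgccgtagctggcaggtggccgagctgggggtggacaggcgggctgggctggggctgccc
Cry1: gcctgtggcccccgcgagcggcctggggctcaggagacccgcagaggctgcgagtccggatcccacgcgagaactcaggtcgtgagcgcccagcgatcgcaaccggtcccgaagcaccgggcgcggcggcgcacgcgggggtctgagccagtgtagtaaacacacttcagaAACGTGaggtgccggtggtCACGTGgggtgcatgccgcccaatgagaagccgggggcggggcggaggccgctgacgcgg

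The Cry1 window held an E-box beginning 60 bases before the start and the variant, as AACGTG, at 79 bases. Nr1d1 had the variant at 28 bases, and Tef an E-box at 127 bases and a D-box at 174 bases. Nfil3 had the receptor core, as TGACCT, at 12 bases, and the Usp2 window held no match. The E-box and its variant share the letters CACGT, and no 2 matches in these windows overlapped. Of 10 members, 9 matched the promoter table, with 13 windows, and Per2 is named only. An E-box was found for 3 of the 9 genes (Cry1, Per1 and Tef), the variant for 2 (Cry1 and Nr1d1), the D-box for 1 (Tef) and the receptor core for 4 (Clock, Nfil3, Nr1d2 and Per1). Counted by window, 4 of the 13 held the E-box, 2 the variant, 1 the D-box and 4 the receptor core. Of all 32851 windows of this length, 6.02% held the E-box, 3.85% the variant, 5.43% the D-box and 14.0% the receptor core. A match is a description of letters, not of binding.

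Among the members with a value on every array, Nfil3 had the highest congenic signal relative to wild type and Usp2 the largest difference in the opposite direction, but none of them passed the test. Of the 10 members, 8 had a value on all 4 arrays and were tested with limma among 13475 probes. None passed an adjusted p of 0.05, against 0.475% of all probes tested (0.289% higher and 0.186% lower). At an adjusted p of 0.10 there were again none, against 0.816% of all probes. At an unadjusted p under 0.05 there were 2 of 8, 1 higher (Nfil3) and 1 lower (Usp2), against 15.8% of all probes (7.12% higher and 8.66% lower). The congenic pools lay wholly on one side of the wild-type pools for 6 of the 8, 1 higher and 5 lower, against 49.4% of all probes (23.4% higher and 26.1% lower). The smallest adjusted p among the 8 was 0.1773, shared by Nfil3 and Usp2. All differences below are congenic minus wild type in log2 units, with n = 2 pools a strain. The ± values are limma's SE, which draws on other probes too, and the 95% intervals are limma's. Base 2 is read from the span of the values, since no source states it, and the folds depend on it. No member lies on chromosome 17, the chromosome named in the congenic strain.

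**Figure D1:**
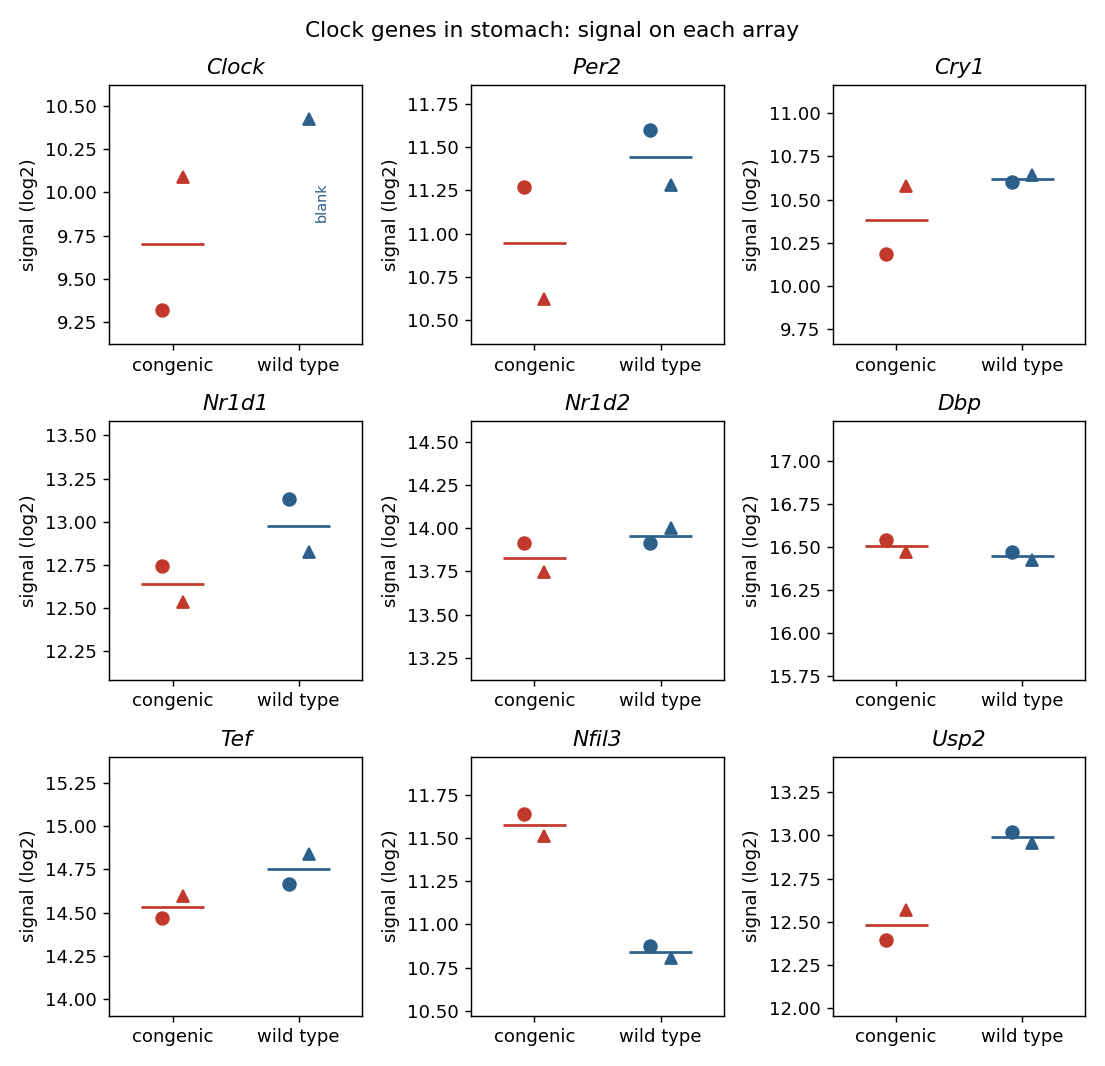
Signal (log2) of 9 clock genes on each array, with congenic pools on the left and wild-type pools on the right of each panel; circles are pool 1, triangles pool 2, and bars the mean of a strain's 2 pools. Each panel spans 1.5 log2 units, so that Nfil3 and Usp2 show separated strains while Dbp and Nr1d2 overlap; Clock is blank on wild-type pool 1, and Per1, blank on every array, is not drawn.

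Among the D-box factors, Nfil3 and its opponents did not show like-sized differences. Nfil3, the D-box repressor (probe 469133), read 11.64 and 11.51 in the congenic pools, against 10.87 and 10.80 in the wild-type pools. The pools of each strain lay within 0.13 log2 of each other and the strains did not overlap. The difference was 0.74 ± 0.17, a fitted ratio of 1.67, with a 95% interval of 0.33 to 1.15 (limma adjusted p = 0.1773), and 97.3% of all probes had a smaller absolute difference. Tef, an activator at the same sites (probe 927795), read 14.47 and 14.59 in the congenic pools, against 14.66 and 14.84 in the wild-type pools. Its congenic values were both below its wild-type values, by 0.07 at the closest. The difference was -0.22 ± 0.097, with a 95% interval of -0.46 to 0.02 (limma adjusted p = 0.3426). Dbp, the activator often used as a readout of clock output (probe 713041), read 16.54 and 16.47 in the congenic pools, against 16.47 and 16.42 in the wild-type pools. Its strains overlapped, and its 4 values spanned 0.12, less than those of any other member tested. The difference was 0.057 ± 0.071, with a 95% interval of -0.12 to 0.23 (limma adjusted p = 0.7197). Only 20.4% of all probes had a smaller absolute difference.

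Usp2, which encodes a deubiquitinating enzyme whose transcript is rhythmic in many mouse tissues, was the clock output gene among the members (probe 336342). It read 12.39 and 12.57 in the congenic pools, against 13.02 and 12.96 in the wild-type pools. Both congenic values were lower than both wild-type values, and the gap within a strain was at most 0.17. The difference was -0.51 ± 0.12, a congenic to wild-type ratio of 0.704, with a 95% interval of -0.79 to -0.22 (limma adjusted p = 0.1773).

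The REV-ERB genes had lower congenic means, with Nr1d1 further from wild type than Nr1d2. Nr1d1, whose protein represses Arntl (probe 650526), read 12.74 and 12.54 in the congenic pools, against 13.13 and 12.82 in the wild-type pools. The strains did not overlap, yet the higher congenic pool came within 0.08 of the lower wild-type pool. The difference was -0.34 ± 0.15, with a 95% interval of -0.70 to 0.03 (limma adjusted p = 0.3396). Nr1d2, its close relative (probe 680946), read 13.92 and 13.74 in the congenic pools, against 13.91 and 14.00 in the wild-type pools. Congenic pool 1 and wild-type pool 1 were practically level, so the strains overlapped. The difference was -0.13 ± 0.099, with a 95% interval of -0.37 to 0.11 (limma adjusted p = 0.5616).

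Among the members tested, the congenic pools differed most from each other for Per2 and Cry1, the repressors of the core loop. Per2, a period protein (probe 348200), read 11.27 and 10.62 in the congenic pools, against 11.60 and 11.28 in the wild-type pools. The congenic pools differed from each other by 0.65, a wider gap than in 96.0% of all probes, and congenic pool 1 lay only 0.01 below wild-type pool 2. The difference was -0.50 ± 0.27, with a 95% interval of -1.15 to 0.15 (limma adjusted p = 0.4156). Cry1, a cryptochrome that blocks CLOCK and BMAL1 (probe 872448), read 10.19 and 10.58 in the congenic pools, against 10.60 and 10.64 in the wild-type pools. Congenic pool 1 alone was low, and congenic pool 2 lay within 0.02 of wild-type pool 1. The difference was -0.24 ± 0.24, with a 95% interval of -0.83 to 0.35 (limma adjusted p = 0.6544). Per1, the other period gene that was probed, was blank on all 4 arrays. The rule behind blanks is not given in the sources used here, so a blank is not read as an absent transcript.

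Clock, the positive factor of the loop (probe 436413), read 9.32 and 10.09 in the congenic pools, against 10.43 in wild-type pool 2 and a blank in wild-type pool 1. Both congenic values were below the only wild-type value, and they were far apart from each other. Of 1157 probes whose mean on the other 3 arrays lay within 0.5 of that of Clock, 23.1% were blank on wild-type pool 1. In a limma fit that allowed 1 blank, with wild-type pool 1 left out for this probe, the difference was -0.72 ± 0.46, with a 95% interval of -1.90 to 0.46 (adjusted p = 0.5092). In that fit none of 9 members passed, against 0.444% of 15301 probes.

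Set by the time of their known crest, the day arm was mostly lower in the congenic pools and the night arm was split. Of the 6 day-arm genes tested, 5 had negative differences and 1, Dbp, a positive one, with a median of -0.28. It was -0.13 over Nr1d2, Dbp and Tef alone, the 3 that remain when probes below the median signal are left out. Over all 13475 probes 50.4% of differences were negative and the median was -0.0020. Of the night arm, Nfil3 was positive and Cry1 negative, so the median of 0.25 stands for neither of them. Arntl, the partner of Clock and a night-arm gene in mouse tissues, read 11.18 and 10.87 in the congenic pools, against 10.63 in wild-type pool 1 and a blank in wild-type pool 2. With that blank its difference was 0.40 ± 0.28 (limma adjusted p = 0.544), and 6.81% of probes of like level were blank on that array. The night-arm median was -0.24 with Clock added and 0.081 with both Clock and Arntl, so its sign depends on which genes with a blank are let in. By sign alone, Nfil3 and Arntl were positive and Usp2, Per2, Nr1d1, Tef and Nr1d2 negative. Against this, Dbp of the day arm was positive, and Cry1 and Clock of the night arm were negative. Genes sorted by the sign they showed form opposite sets whenever signs are mixed. The listing therefore cannot decide whether the arms moved oppositely. Among these genes only Nfil3 and Usp2 had limma intervals whose ends shared a sign, and none of the genes passed. The day and night arms were not tested as groups.

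**Figure D2:**
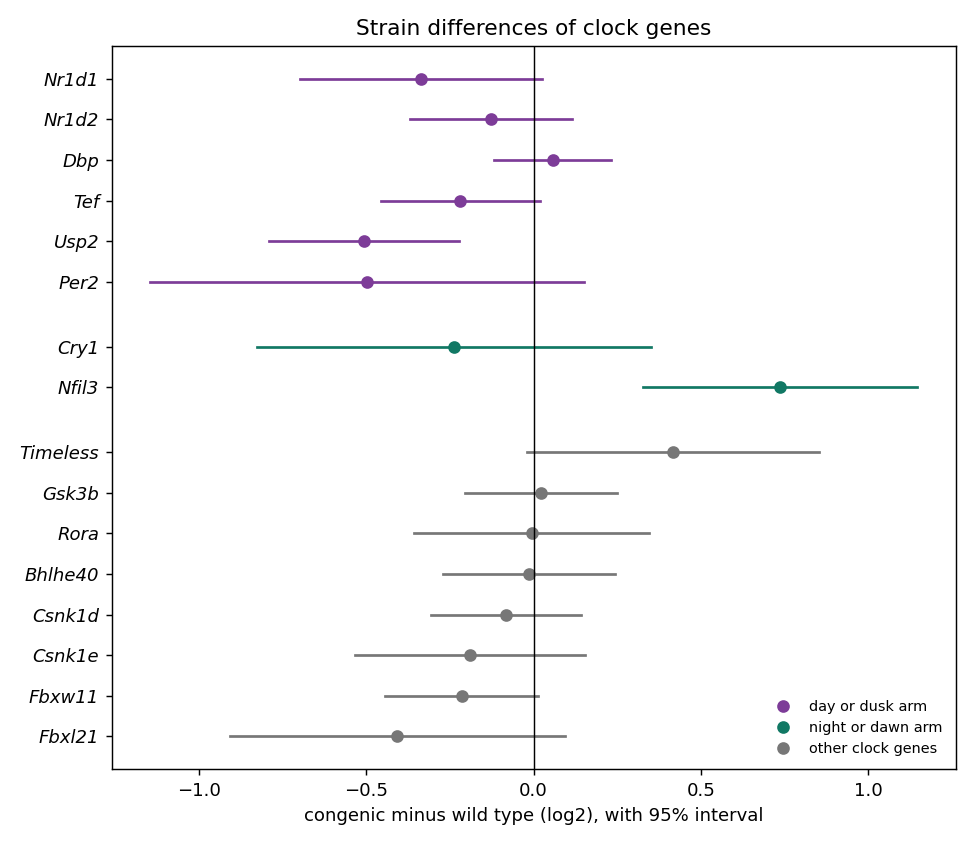
Differences (congenic minus wild type, log2) of the 8 clock genes and 8 further clock genes measured on all arrays, with limma's 95% intervals. The intervals of Nfil3 (0.33 to 1.15) and Usp2 (-0.79 to -0.22) do not reach 0, while those of the other genes do; none passed the adjusted threshold.

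Fits with each pool left out show how far a difference rests on 1 pool. For the 6 members whose strains did not overlap no such fit can change the sign, and for Dbp and Nr1d2, where it could, it did not. Nfil3 ranged from 0.67 to 0.80 and Usp2 from -0.59 to -0.42 over the 4 fits with a pool left out. Dbp stayed between 0.023 and 0.091. Per2 ranged most, from -0.82 without congenic pool 1 to -0.17 without congenic pool 2, and Cry1 was -0.041 without congenic pool 1 and -0.43 without congenic pool 2. Nr1d1 ranged from -0.49 to -0.18, Tef from -0.31 to -0.13 and Nr1d2 from -0.21 to -0.041. No member passed in these fits, in which a strain left with 1 pool is assumed to vary like the other strain, so they say little about the count of 0.

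**Figure D3:**
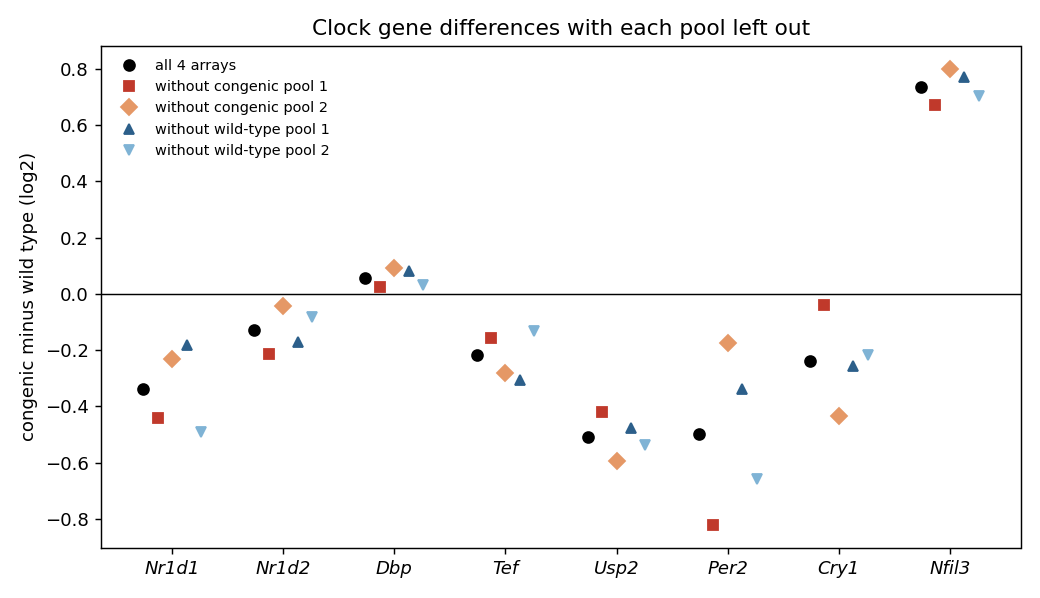
Differences (congenic minus wild type, log2) of the 8 clock genes measured on all arrays, with all 4 arrays and with each pool left out in turn. Nfil3 stays between 0.67 and 0.80 and Usp2 between -0.59 and -0.42, whereas Per2 spreads from -0.82 to -0.17.

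Of 22 further genes of the loop, 13 had a named probe and 8 were measured on all arrays. None of the 8 passed in limma over all probes and none had an unadjusted p under 0.05. Their median difference was -0.048. Timeless, a homologue of a fly clock gene that acts in DNA replication in mammals, was highest relative to wild type, with 13.73 and 14.13 in the congenic pools, against 13.69 and 13.33 in the wild-type pools (0.42 ± 0.18). Its other probe differed by 0.30 ± 0.27, in the same direction. Fbxl21, a ligase adaptor that targets cryptochromes, was lowest, with 10.42 and 10.40 in the congenic pools, against 10.77 and 10.86 in the wild-type pools (-0.41 ± 0.20). The ligase adaptor Fbxw11 differed by -0.22 ± 0.093. Of the kinases that mark clock proteins, Csnk1e differed by -0.19 ± 0.14, Csnk1d by -0.083 ± 0.091 and Gsk3b by 0.022 ± 0.093. A dimmer Gsk3b probe read 0.34 ± 0.18. Rora, the receptor that activates Arntl at the sites REV-ERB proteins occupy, differed by -0.0059 ± 0.14, and Bhlhe40, an E-box repressor, by -0.014 ± 0.10. The remaining 5 had blanks: Arntl on 1 array, as above, Arntl2 on congenic pool 2 (10.57 in congenic pool 1, against 8.89 and 10.19 in the wild-type pools, a difference of 1.03 ± 0.62), Cry2 on both second pools (9.61 in congenic pool 1, against 9.51 in wild-type pool 1), and Npas2 and Bhlhe41 on 3 arrays each. Npas2 read 10.26 in wild-type pool 1 and Bhlhe41 read 11.93 in congenic pool 1.

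Genes downstream of the clock, or that move with the hormones and signals that reset it, had more negative than positive differences, and none passed in limma. Of 8 measured clock output genes known from other mouse tissues, 7 were negative, with a median of -0.13, and none had an unadjusted p under 0.05. Tspan4, a tetraspanin, differed by -0.24 ± 0.12 and Alas1, the first enzyme of haem synthesis, by -0.17 ± 0.082. Cdkn1a, a cell cycle inhibitor and a gene of chromosome 17, differed by -0.18 ± 0.090. Nampt, an enzyme of NAD synthesis, differed by -0.37 ± 0.33, with 11.46 in wild-type pool 1 against 10.59 in wild-type pool 2. Glucocorticoids, hormones with a daily rhythm that set clocks outside the brain, act on a list of which 7 genes were measured. Of these 6 were negative, and the median was -0.23. At an unadjusted p under 0.05 there were 3 lower, against 8.66% of all probes. Dusp1, a phosphatase of stress kinases and a gene of chromosome 17, read 14.48 and 14.47 in the congenic pools, against 14.99 and 14.89 in the wild-type pools (-0.46 ± 0.079, limma adjusted p = 0.1141). Cebpd, a transcription factor, differed by -0.30 ± 0.075, Klf15, another, by -0.40 ± 0.13, and Tsc22d3, a mediator of glucocorticoid action, by -0.21 ± 0.097.

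Immediate early genes, which also answer resetting signals, had 8 negative and 4 positive differences among 12, with a median of -0.19. At an unadjusted p under 0.05 there were 6 lower and 1 higher, against 8.66% and 7.12% of all probes. Of the 6 lower, 1 is Dusp1, which is also counted in the glucocorticoid list, so the lists are not separate. Fos differed by -0.34 ± 0.071 and Klf4 by -0.38 ± 0.085, while Jun was higher in the congenic pools (0.40 ± 0.080). Of 10 genes of the fasting response 4 were measured, 2 negative and 2 positive. Pdk4, a kinase that restrains glucose oxidation, differed by -0.31 ± 0.084 and Pck1, an enzyme of glucose synthesis, by -0.24 ± 0.13. Acot1, a thioesterase of fatty acids, differed by 0.12 ± 0.11 and Txnip by 0.036 ± 0.11. The part of these genes in the clock gene differences was not tested.

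**Figure D4:**
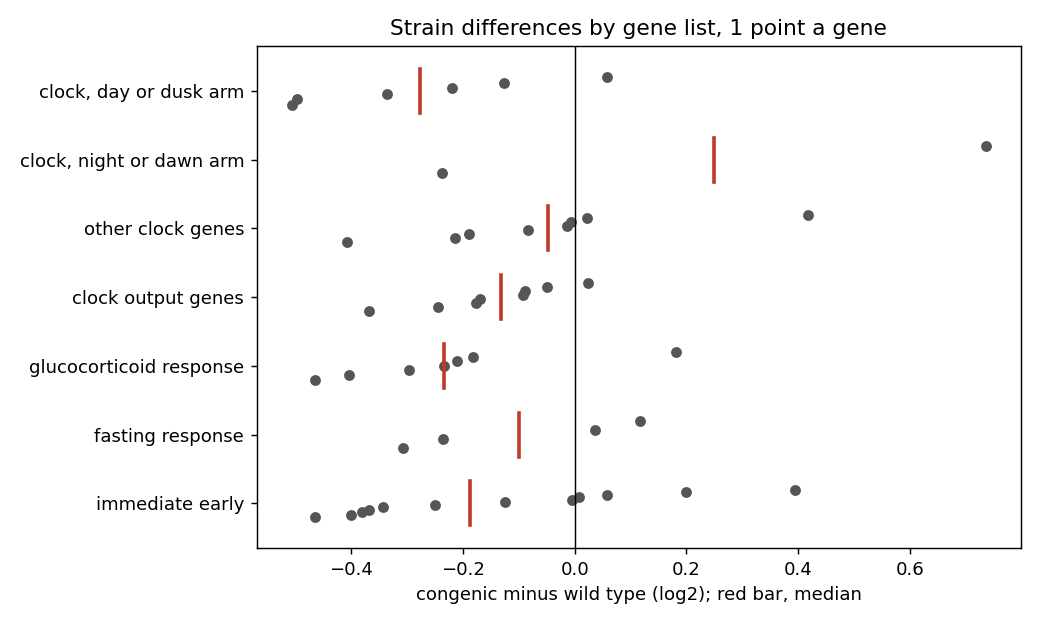
Differences (congenic minus wild type, log2) of every measured gene of 7 lists, 1 point a gene at its brightest probe, with the list's median as a red bar. The day arm (median -0.28) and the glucocorticoid list (-0.23) lie furthest below 0, and the night arm holds only Nfil3 and Cry1 on opposite sides of 0.

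The genes whose values over the 4 arrays were nearest to those of Usp2, after centring each gene on its mean, were Sema6a, Fzr1 and Ube2n. Their root mean square distances from Usp2 were 0.019, 0.029 and 0.033 log2 among 7681 genes compared, and their differences were -0.50 ± 0.092, -0.47 ± 0.11 and -0.54 ± 0.093. For Nfil3 the nearest were Srpk1, Cst11 and Zfp934, at 0.044, 0.063 and 0.063 log2, with differences of 0.72 ± 0.077, 0.78 ± 0.23 and 0.63 ± 0.12. Of these 6 genes only Srpk1, a gene of chromosome 17, passed in limma (adjusted p = 0.02577). Whether CAST bases under the probes alter the signal of chromosome 17 genes, such as Srpk1, Dusp1, Cdkn1a and Clps, was not tested. Likeness over 4 arrays is a weak description, since many genes share any such pattern.

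The arrays carried values for between 16320 and 16954 of 33012 probes, and their medians over the compared probes were all 12.82. All 10 measured genes of a list of 13 stomach markers had values on every array, with a summed log2 level of 22.94 and 22.81 in the congenic pools, against 22.77 and 22.95 in the wild-type pools. That sum is led by Gkn2, which read 21.25, the maximum of every array, on all 4. None of the 10 passed in limma. At an unadjusted p under 0.05 there were 3 lower (Gast -0.59 ± 0.099, Ghrl -0.43 ± 0.093 and Atp4a -0.21 ± 0.079), against 8.66% of all probes. Cblif had the largest absolute difference, 0.64 ± 0.33 in the other direction. In all 6 differences were negative and 3 positive, and the median was -0.057. Some markers of other tissues passed, where 0.289% of all probes were called higher and 0.186% lower. The summed level of 10 exocrine pancreas markers was 20.50 and 20.28 in the congenic pools, against 19.87 and 20.08 in the wild-type pools, and 9 of the 10 rose (Cela2a, Cela3b, Ctrb1, Cpa1, Cpb1, Prss1, Amy2a5, Cel and Reg1). Clps, the brightest and a gene of chromosome 17, weighs most in that sum (-0.086 ± 0.14). The median difference of the 10 was 2.67 and Cela2a rose 9.40-fold. For 6 liver markers it was 18.75 and 18.64 in the congenic pools, against 18.58 and 18.59 in the wild-type pools, with 1 that rose (Alb, 2.86-fold). All 6 liver differences were positive, and their median was 0.80. At an unadjusted p under 0.05 there were 4 higher, against 7.12% of all probes. For 8 skeletal muscle markers the summed level was 16.30 and 16.34 in the congenic pools, against 17.31 and 17.38 in the wild-type pools. All 8 differences were negative, and their median was -1.13. Each had an unadjusted p under 0.05, against 8.66% of all probes lower at that level. Of the 8 muscle markers, 3 passed the adjusted threshold (Acta1, Myl1 and Tnnt3), against 0.186% of all probes called lower. Mb had the largest difference (-1.77 ± 0.30) without passing. For 3 immune markers the summed level was 18.06 and 18.17 in the congenic pools, against 18.79 and 18.63 in the wild-type pools. Its difference is led by Cd5, the only one of the 3 that passed (-1.25 ± 0.10). Cd74 differed by -0.27 ± 0.068 and Lyz2 by 0.079 ± 0.092. Another 4 of the 7 immune markers with a probe had blanks, so the sum says little about immune cells. The clock runs in these tissues too, and their part in the clock gene differences was not tested. In bulk RNA, fewer cells of a type and less RNA per cell cannot be told apart.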

How the data were processed

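Stomach RNA of 4 pools was labelled with digoxigenin and read on single-colour chemiluminescent arrays, per the labels' protocols. The deposited table holds 1 value per probe and array, taken here as log2 signal from its range. How values were normalized, on which log base, and why cells were left blank is not given in the sources used here. The arrays were already on a like scale, with a shared maximum of 21.25. Some exact values recur between arrays, such as 19.5144 for Gkn1 in wild-type pool 1 and for Atp4a in congenic pool 2. Probes were named through the platform annotation table, and only probes with 1 gene symbol were named. All 10 members' symbols matched RefSeq (GRCm38.p6), which gave chromosomes and promoter sequences.

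Strains were compared with limma 3.58.1 in R 4.3.3 (lmFit, then eBayes with a trend of variance on signal; residual degrees of freedom 2, prior 3.97). The test was two-sided and ran on the 13475 probes with a value on all 4 arrays, without further normalization. P-values were adjusted over all of these by Benjamini-Hochberg, with a threshold of 0.05. The fit was tested on simulated data, with independent noise and spreads shuffled over probes, so without the trend of variance on signal. Not passing does not show that a gene is equal between the strains. P-values and SEs combine the spread between 2 pools a strain with that of other probes of like signal, which weighs more (prior 3.97 against residual 2). They are therefore not the spread of a gene's own pools alone, and the number of arrays limits precision. Groups and pool numbers came from the sample titles. Same-numbered pools did not deviate together (Pearson's r = -0.064 over probes), so they were not paired.

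The members and lists were chosen with earlier results of these data known. Named are the 10 members, every measured gene of the further clock list, list genes that passed, up to 4 genes by p of the output, glucocorticoid, fasting and immediate early lists, and, for the member with the smallest p in each arm, the 3 genes nearest over the arrays. A gene with several probes was taken at its brightest. Clock genes with blanks and other probes of Timeless and Gsk3b are also given. Alternatives were other variance models, quantile normalization, median centring, no dim probes, the replicate number as a block, each pool left out, 1 blank allowed, a threshold of 0.10 and averaging the probes of each gene. Figures were drawn with matplotlib 3.10.9.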

Additional observations from a re-analysis of the deposited data

How the results depend on the processing

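The count of 0 clock genes past the threshold held under all 13 alternatives, including an adjusted p of 0.10, with adjusted p-values of the 8 genes from 0.1383 to 0.9564. Several alternatives alter only the spread or the threshold and leave the differences as they are, and leaving out a pool leaves 1 in a strain, assumed to vary like the other strain. Median centring could change little, because the medians of the compared probes were already alike. Quantile normalization moved Cry1 from -0.24 to -0.30, Nfil3 from 0.74 to 0.70 and the night arm's median from 0.25 to 0.20. It left the day arm's median at -0.28. The count over all probes, 64, was 20 without the variance trend, 35 with the replicate number as a block and 110 at an adjusted p of 0.10. Leaving out a pool gave 15 (congenic pool 1) to 168 (wild-type pool 2), with 27 for congenic pool 2. The replicate block changed no call of a clock gene. The day arm's median was -0.13 without dim probes, where 3 of its 6 genes stayed, and -0.32 to -0.20 with a pool left out. The night arm's median was -0.24 with 1 blank allowed, where Clock joins, 0.081 when Arntl was added too (an alternative chosen after seeing the data), and could not be formed without dim probes. The median of the further clock genes was -0.13 to 0.0014 with a pool left out, positive without wild-type pool 2. The other causes were not tested. Signal over background is unknown here, and 3 of the 8 clock genes remain when probes below the median signal are left out.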
